A study of Mus musculus with 14 samples.

Results

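Copper handling and the metal response were followed at 5 genes, Mt1, Mt2, Mtf1, Sod1 and Atp7a, in mouse regulatory T cells with and without the copper importer encoded by Slc31a1. The genes were chosen by name, and every peak of 10 CUT&Tag peak lists was taken that touched 1 of 4 windows of mm39: chr8:94880000-94920000 for Mt1 and Mt2, chr4:124685000-124755000 for Mtf1, chr16:90005000-90035000 for Sod1 and chrX:105060000-105180000 for Atp7a. When the lists of a mark were merged, the windows held 11 of 37573 H3K27ac regions and 23 of 63341 H3K27me3 regions. In CUT&Tag an antibody directs a transposase to a histone mark. H3K27ac is found at active promoters and enhancers, and H3K27me3 is laid down by Polycomb complexes at silenced genes.

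Control cells, labelled ChimeraWT, came from mice named Foxp3YFPcre;wt, and knockout cells, labelled ChimeraKO, from mice named Foxp3YFP-Slc31a1△;wt. The YFP and Cre are named for Foxp3, the regulatory T cell factor whose gene drives them, and what wt marks in both names is not spelled out in the labels. No treatment, age or sex is labelled. Values are given below in replicate order. Replicate numbers are counted within a mark and do not match between marks. In both genotypes, H3K27ac replicate 1 and H3K27me3 replicate 2 carry chimera number 2. H3K27me3 replicate 1 carries chimera number 1, for which no H3K27ac library is labelled. H3K27ac was listed for 3 control and 3 knockout libraries and H3K27me3 for 2 and 2, all from FACS-sorted cells. The design text speaks of different mice and the labels number the chimeras, but neither says that each library is 1 animal, so p-values measure the spread between these libraries, which may be technical. Without an mm39 annotation, regulatory T cell markers were not placed, and which gene a peak in a window belongs to was not settled.

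Copper enters cells through CTR1, the product of Slc31a1, and is passed by chaperones to enzymes such as the superoxide dismutase SOD1. ATP7A pumps it into the secretory pathway and out of the cell. Metallothioneins, small cysteine-rich proteins encoded by Mt1 and Mt2, bind surplus zinc and copper, and their genes are switched on by the zinc-sensing factor MTF1 through metal response elements in their promoters.

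The lists differed in ways that touch every comparison below. H3K27ac lists held 27986 to 32012 peaks in controls and 21326 to 28289 in knockouts. For H3K27me3 the controls had 7512 and 43945 peaks, and the knockouts 36436 and 57728. H3K27me3 control 1 stood apart, with 4.89 Mb under peaks against 30.6 to 62.8 Mb in the other 3 lists. Its −log10 p ran from 2.02 to 7.21, while the other 3 lists started at 9.005 to 9.016, so every peak of control 1 was weaker than the weakest listed in any of them. Presence and covered bases of H3K27me3 were therefore not called on a common scale. Each peak's height and local background were worked back from its fold and −log10 p under a Poisson model, and this gave whole fragments for 98.7 to 99.9% of the peaks in the 6 H3K27ac lists, to within 0.01% of the deposited −log10 p. A library's genome-wide mean was taken as the most frequent of its low local background values, and the width of its narrowest peak as the fragment length. The depth inferred in this way was 8.49 to 12.4 fragments per kb in H3K27ac controls and 9.10 to 11.0 in knockouts. The background library, read back from the same values, had 13.1 to 16.1 fragments per kb in H3K27ac controls and 20.6 to 20.7 in knockouts. Effects of genotype and of the background library cannot be told apart.

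The windows fell into different chromatin classes in both genotypes. The Mtf1 window was acetylated in all 6 H3K27ac lists. The Sod1 and Atp7a windows had fewer bases under H3K27ac peaks, and none in some lists. The Mt1 and Mt2 window had no H3K27ac peak in any list but H3K27me3 in all 4. The difference in covered bases between genotypes passed the test in 0 of the 5 comparisons of a window and a mark that held peaks (exact permutation test, two-sided, p from 0.2 to 0.667, adjusted p = 0.667 in each). The smallest p that 3 against 3 libraries allow is 0.1, and 2 against 2 allow 0.333. Of the merged regions in the windows, 0 had a peak in every list of a genotype while lacking one in all lists of the other genotype, a pattern seen at 2.66% of all H3K27ac regions for controls and 0.809% for knockouts, and at 0.0426% and 9.94% of all H3K27me3 regions.

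**Figure D1:**
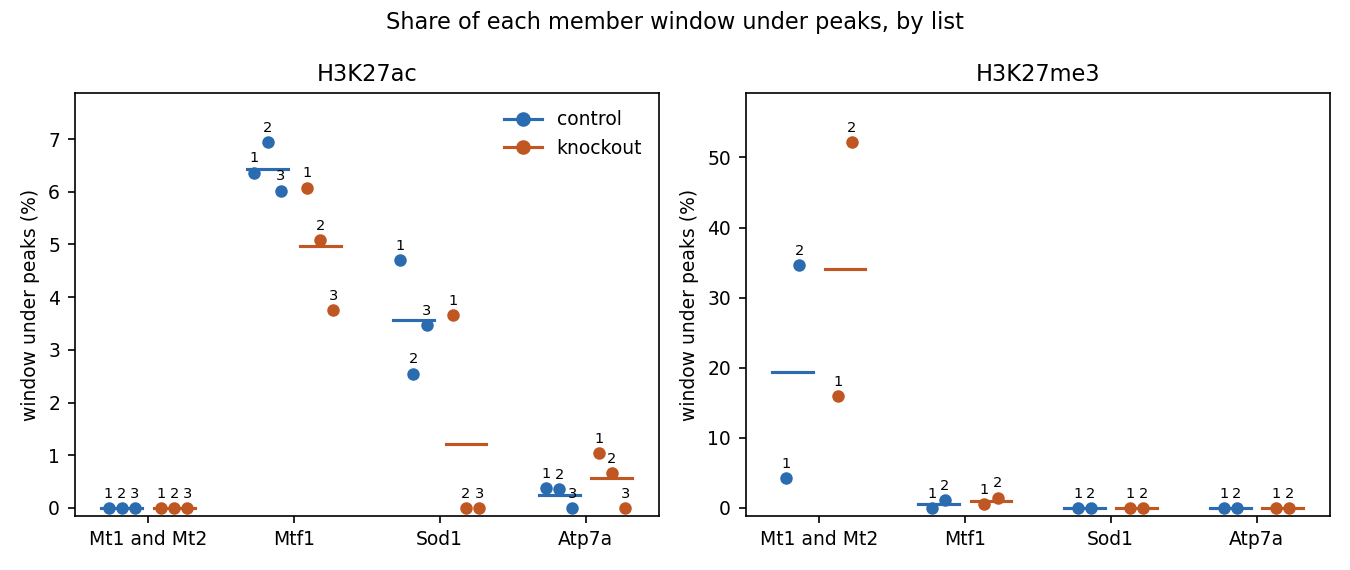
Share of each window under H3K27ac (left) or H3K27me3 (right) peaks, in percent of the window's length. Points are lists, numbered by replicate, and bars are means of the 3 or 2 lists of a genotype; in every list acetylation is highest at Mtf1, at 3.76 to 6.94%, and H3K27me3 at Mt1 and Mt2, at 4.21 to 52.1%.

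The regulator Mtf1 lay in the most acetylated window. H3K27ac peaks covered 4451, 4855 and 4214 bases in the control lists and 4252, 3558 and 2629 in the knockout lists. Knockout 1 lay within the range of the controls, and knockouts 2 and 3 lay below it. Controls averaged 4507 ± 324 bases and knockouts 3480 ± 814 (mean ± SD over 3 lists; two-sided exact permutation p = 0.2). In each list between 91.3 and 93.7% of tiles of the same length had fewer covered bases. Most of these tiles were empty, as between 75.4 and 81.3% of all tiles had no base under a peak.

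Most of this acetylation came from a pair of regions with a peak in all 6 lists, as 34.9% of all merged H3K27ac regions had. In the left one, at chr4:124695473-124697095, peaks covered 1307, 1444 and 1445 bases in the control lists and 1485, 1025 and 483 in the knockout lists. The controls were alike, while knockout 1 lay just above them and knockouts 2 and 3 below. By limma over 22443 regions the log2 change in covered bases was -0.60 (SE 0.319, adjusted p = 0.407). It was -0.92 without knockout 1 (limma adjusted p = 0.0854, the lowest of its alternatives, which reached 0.638), -0.28 without knockout 3 and -1.80 with lists of equal length, and was called in none of these. The right region, at chr4:124743474-124746271, was wider and steadier, with 2798, 2607 and 2450 bases in the control lists against 2767, 2533 and 2146. Its log2 change was -0.12 (SE 0.112, adjusted p = 0.657 by limma). The groups overlapped in both regions. In RefSeq's GRCm38.p6 table, used for gene order only, Inpp5b precedes Mtf1 and 1110065P20Rik, Yrdc and Maneal follow it.

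**Figure D2:**
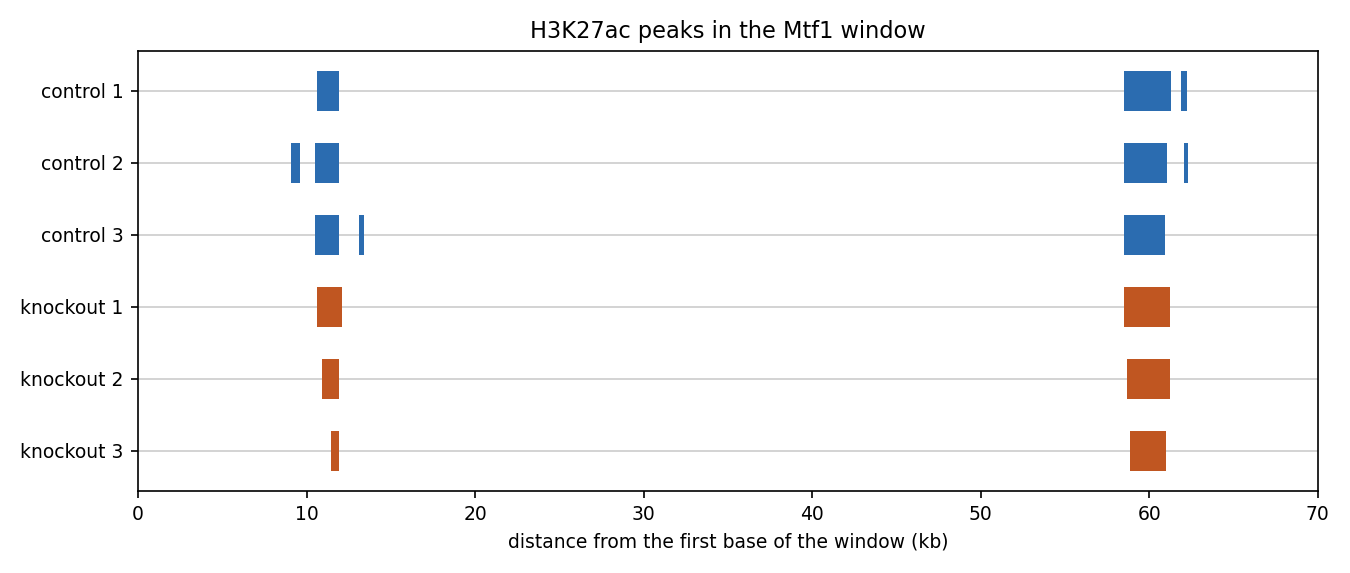
H3K27ac peaks along the Mtf1 window, as distance in kb from its first base, with 1 row per list. All 6 lists have a left and a right peak, and the 4 short extra peaks are all in control lists.

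Another 3 regions near this pair were found in control lists only, none of them in all 3. At chr4:124694062-124694616 a peak was listed in control 2, at chr4:124698085-124698403 in control 3, and at chr4:124746912-124747318 in controls 1 and 2. Counting these, the window held 3, 4 and 3 peaks in controls and 2 in each knockout, so that the groups did not overlap (exact permutation p = 0.1, adjusted p = 0.5 over 5 comparisons). Tiles of the same length with a peak in at least 3 lists showed fewer peaks in every knockout list than in any control list in 9.51% of 8516 cases, and more in every knockout list in 1.46%. The extra peaks ranked between the 5.56 and 40.9 percentiles of −log10 p within their own lists. The knockout lists were also shorter, and the part of list length in this count was not tested.

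Peak height in the Mtf1 window varied more within a genotype than between the genotypes. At the left region the summit stood at 67.0, 35.0 and 36.5 times the library's genome-wide mean in the control lists, and at 71.3, 29.2 and 22.9 times in the knockout lists. At the right region it stood at 102, 55.6 and 64.9 times in controls and 99.1, 55.2 and 37.0 times in knockouts. Replicate 1 was the highest of its genotype at both regions, in controls and in knockouts. In a limma fit of log2 summit height over 12819 regions with a peak in every list, of which 0.757% were called, the left region changed by -0.28 (SE 0.398, limma adjusted p = 0.990) and the right by -0.29 (SE 0.346, limma adjusted p = 0.967). Neither was called without any 1 library, and without knockout 3 both signs turned. This measure was chosen after seeing the data.

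The local background was itself high at these sites. Local background at the left summit was 28.6, 5.35 and 12.7 times the genome-wide mean in controls and 23.2, 17.2 and 10.7 times in knockouts. At the right summit it was 13.4, 10.5 and 9.12 times in controls and 10.8, 6.96 and 6.98 times in knockouts. The deposited fold of the left peak, which sets its height against that background, was accordingly only 2.32, 6.08 and 2.80 in controls and 3.04, 1.68 and 2.10 in knockouts. These folds are the authors' own values for a peak within its list.

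**Figure D3:**
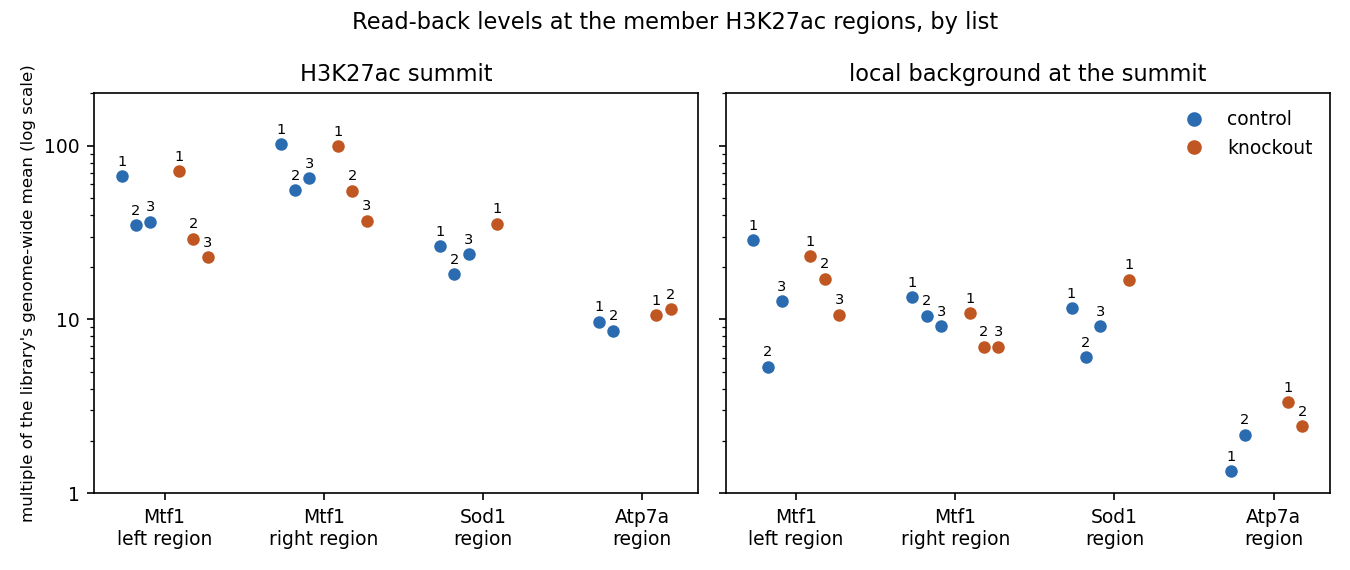
H3K27ac summit height (left) and local background at the same summit (right), both as multiples of the library's genome-wide mean on a log axis, for the 4 member regions with a peak in at least 3 lists. Points are lists, numbered by replicate, and a list without a peak has no point; replicate 1 stands highest at the Mtf1 summits in both genotypes.

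The far end of the Mtf1 window touched a Polycomb region. At chr4:124754233-124757529, of which 768 bases lie inside the window, H3K27me3 peaks covered 846 and 3178 bases in the control lists and 1874 and 3082 in the knockout lists. It was the only H3K27me3 region of the windows with a peak in all 4 lists, a pattern of 6.1% of all H3K27me3 regions. A second, at chr4:124753551-124753868, was listed in knockout 2. Inside the window, peaks covered 0 and 768 bases in the control lists against 381 and 1033 (two-sided exact permutation p = 0.667 with 2 lists a group). All H3K27me3 peaks lay beyond the last H3K27ac peak of the window, which ended at 124747318, so no base of the window held peaks of both marks.

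The metallothionein genes Mt1 and Mt2, the classic targets of MTF1, lay in a window with the repressive mark. Their promoters are shown because they hold the letters of the motif that MTF1 reads and are rich in CpG. The sequences are RefSeq's, from GRCm38.p6, run from 250 bases before to 50 after the start, and are both on the plus strand, at chr8:94178839-94179138 for Mt1 and chr8:94172368-94172667 for Mt2. These coordinates belong to another build than the windows. Capitals mark matches to the core of the metal response element, searched as TGCACNC and TGCGCNC on both strands.
Mt1: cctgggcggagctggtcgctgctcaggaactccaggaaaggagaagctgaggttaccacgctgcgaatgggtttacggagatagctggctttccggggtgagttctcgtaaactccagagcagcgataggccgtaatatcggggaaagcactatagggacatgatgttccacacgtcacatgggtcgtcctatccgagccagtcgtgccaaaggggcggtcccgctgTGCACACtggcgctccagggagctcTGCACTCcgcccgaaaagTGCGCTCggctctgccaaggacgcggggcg
Mt2: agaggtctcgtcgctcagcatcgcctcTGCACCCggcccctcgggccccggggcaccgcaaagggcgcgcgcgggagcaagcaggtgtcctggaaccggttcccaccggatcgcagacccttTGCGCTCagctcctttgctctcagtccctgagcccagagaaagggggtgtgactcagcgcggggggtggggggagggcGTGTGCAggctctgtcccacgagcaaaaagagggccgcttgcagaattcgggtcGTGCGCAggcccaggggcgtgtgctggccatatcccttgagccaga
The Mt1 promoter held 3 matches and that of Mt2 held 4, with no overlap among them. At least 3 matches were found in 1.97% and at least 4 in 0.517% of 32851 promoters of the same length. The promoter of Atp7a held 2, where 7.11% of promoters held at least 2, and those of Mtf1 and Sod1 held none of these letters. These shares are over all promoters and were not matched for CpG content. All 5 promoters were CpG-rich: 24 CpGs in Mt1, 24 in Mt2, 25 in Mtf1, 34 in Sod1 and 22 in Atp7a, against a median of 7. In the same order, 80.0, 80.0, 81.6, 92.3 and 76.9% of all promoters had fewer. Whether CpG content goes with the mark of a window was not tested. A match is a run of letters and does not show binding.

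H3K27me3 lay along the whole Mt1 and Mt2 window, in patches that differed between the lists. In the control lists 4 and 15 peaks covered 1683 and 13854 bases, and in the knockout lists 6 and 21 peaks covered 6388 and 20855. The values overlapped between genotypes, and replicate 2 was the higher in both. Controls averaged 7768.5 ± 8606 bases and knockouts 13621.5 ± 10230 (mean ± SD over 2 lists; two-sided exact permutation p = 0.667). Only 1.54, 0.642, 2.17 and 0.498% of tiles of the same length had at least as many bases in controls 1 and 2 and knockouts 1 and 2, so the window ranked high in every list. Between 80.6 and 94.5% of tiles had no base under a peak, the most in control 1. H3K27me3 in all 4 lists with no H3K27ac in any of 6 was found for 4.02% of such tiles, while 79.6% had no H3K27ac in any list.

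The difference in bases, knockout minus control, shrank from 5853 to 3618 without the lowest 25% of peaks of each list and to 997.5 with lists of equal length, and kept its direction in both. It turned on a scale chosen after seeing the data. Per Mb under peaks the window held 344 and 342 bases in the control lists and 208 and 332 in the knockout lists. Both knockouts were then below both controls (exact permutation p = 0.333, the smallest possible, two-sided), a pattern of 12% of the 10958 tiles of this length with a peak in at least 2 lists. Knockout 2 was close to both controls on this scale, and knockout 1 was low. Leaving out control 1 also turned the difference in bases, to -232.5, and leaving out knockout 2 turned it to -1380.5.

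The listed peaks of control 1 and knockout 1 lay on different sides of the window. All 6 peaks of knockout 1 touching it ended by position 94898115, and all 4 peaks of control 1 began at 94902267 or beyond. None of the 4 control 1 peaks overlapped knockout 1, while 3 overlapped control 2 and 3 overlapped knockout 2. The 4 control 1 peaks had a −log10 p of 2.98 to 4.30, below the 9.005 at which the list of knockout 1 starts. Presence is thus not comparable between these lists. The part of their different starting points in the lack of knockout 1 peaks on the right side was not tested. Over the whole genome 64.8% of control 1 peaks overlapped knockout 1, 95.9% control 2 and 98.0% knockout 2. The lists of control 2 and knockout 2 spanned both sides, and all 15 peaks of control 2 overlapped knockout 2.

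**Figure D4:**
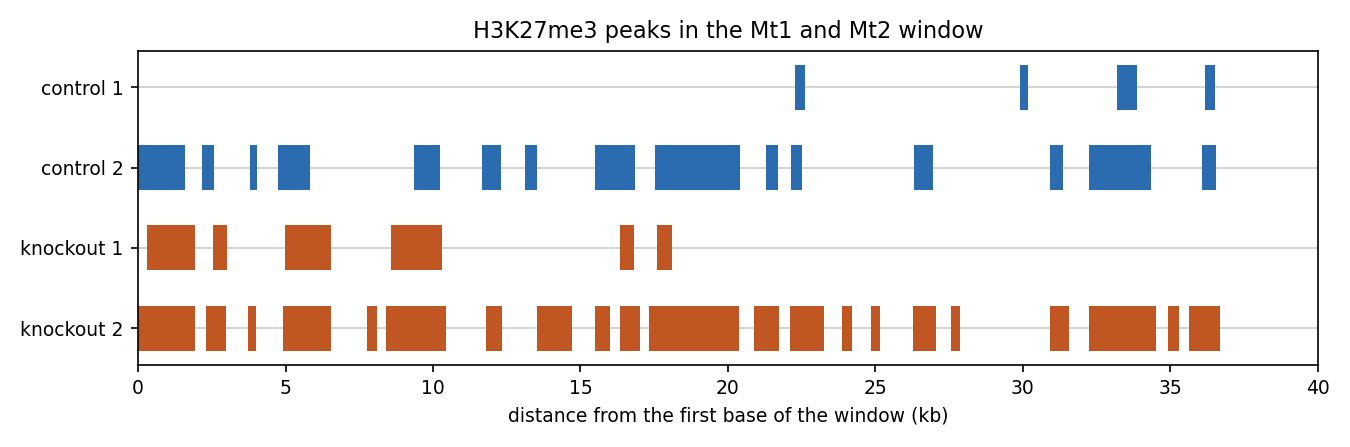
H3K27me3 peaks along the Mt1 and Mt2 window, as distance in kb from its first base and clipped to the window, with 1 row per list. Control 2 and knockout 2 have 15 and 21 peaks along the window, control 1 has 4 on the right side and knockout 1 has 6 on the left.

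By 10 kb bins the listed peaks were split in the same way. From 94880001 to 94890000, 0 and 3945 bases were covered in the control lists and 5054 and 6414 in the knockout lists (log2 change 2.15, SE 1.09, limma adjusted p = 0.476). From 94890001 to 94900000 the values were 0 and 5115 against 1334 and 6063 (log2 change 1.00, SE 1.34, limma adjusted p = 0.680). The left part was thus covered in 3 of 4 lists, and longest in knockout 2. From 94900001 to 94910000 they were 469 and 1827 against 0 and 4071 (log2 change -1.74, SE 0.994, limma adjusted p = 0.518), and from 94910001 to 94920000, 1214 and 2966 against 0 and 4306 (log2 change -2.64, SE 1.28, limma adjusted p = 0.450). In the right part knockout 2 had the most bases and knockout 1 none, so that the log2 changes were negative although the mean of covered bases was higher in knockouts. The log2 values are centred on each list. The median change of the 4 bins was -0.37, against 0.78 over all bins. Its sign depended on the setting: it was -0.79 with quantile normalization (0.00 over all bins), but 0.67 without centring (1.82 over all bins) and 0.30 with lists of equal length (-0.09 over all bins).

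Of the 4 bins limma called 0, against 0.3% of bins over the genome (0.0428% lower and 0.257% higher in knockouts). At an unadjusted p under 0.05, 1 of the 4 was lower and 1 higher. Over the genome 662 bins were lower and 1548 higher at that level, of 21034 tested. Of 23 H3K27me3 regions in all windows, 16 had a peak in at least 2 lists and were tested. Limma called 0 of the 16, against 0.191% of all regions (0.0164% lower and 0.174% higher). At an unadjusted p under 0.05, 0 were lower and 1 higher, against 835 lower and 1893 higher of 36697 regions over the genome. Without control 2 the short list is the only control. The log2 changes of the bins from 94880001, 94890001, 94900001 and 94910001 were then 3.61, 2.65, -2.06 and -3.23. In that fit 6179 bins were called over the genome, against 63 with all lists.

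Of 21 H3K27me3 regions in the Mt1 and Mt2 window, 0 had a peak in all 4 lists and 6 were in a single list. The strongest by mean −log10 p reached past the left edge of the window, at chr8:94877382-94881915. Its peaks covered 3962 bases in control 2, 3916 in knockout 1 and 4530 in knockout 2, at deposited −log10 p of 49.0, 24.6 and 61.3, and none in control 1. Covered bases were alike in these 3 lists, and their strongest peaks ranked at the 97.9, 93.9 and 98.4 percentiles of −log10 p within their own lists. The summits of these peaks lay left of the window, which holds 1916 bases of the region. Inside the window, the knockout 1 peak of the region, from 94880317, had a −log10 p of 9.67, at the 2.78 percentile of its list. In the same GRCm38.p6 table Mt3 and Mt4, further metallothionein genes, precede Mt2 and Mt1.

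The next in rank lay inside the window. At chr8:94897331-94900394, 2858, 521 and 3042 bases were covered in control 2, knockout 1 and knockout 2. At chr8:94888416-94890430 the values were 878, 1740 and 2015. The first was short in knockout 1 and the second in control 2. At chr8:94893108-94894719 control 2 had 405 bases and knockout 2 had 1211, and at chr8:94887770-94888096 only knockout 2 had a peak, of 327 bases. The remaining 16 regions were 295 to 2262 bp wide.

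The window of Sod1, which encodes the copper- and zinc-dependent superoxide dismutase of the cytosol, had no H3K27me3 peak in any list. Its main H3K27ac region, at chr16:90017185-90018752, had peaks of 913, 765 and 1042 bases in the control lists, 1099 in knockout 1 and none in knockouts 2 and 3. The region was thus listed in every control and in 1 of 3 knockouts, whose peak was the widest. By limma the log2 change in covered bases was -2.17 (SE 1.05, adjusted p = 0.362), a size that depends on the pseudocount where a list has none. Without knockout 1 limma called it lower (log2 change -3.35, adjusted p = 0.0386). That fit called 1032 of 22443 regions lower, against 427 with all lists. Over all alternatives the limma adjusted p at this region ran from 0.0386 to 0.601. These peaks stood low in their lists, between the 18.5 and 29.2 percentiles of −log10 p.

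At the Sod1 summit the height was 26.4, 18.2 and 23.7 times the genome-wide mean in controls and 35.6 times in knockout 1. The highest value was thus in a knockout. The local background was 11.6, 6.04 and 9.12 times in controls and 16.9 times in knockout 1, so that the deposited fold was 2.24, 2.86, 2.52 and 2.08. Height and background in the lists with no peak are not given by a peak list, and the part of the background library in their lack of a peak was not tested. A second region, at chr16:90027902-90028400, was listed in control 1 only. Over the window the covered bases were 1412, 765 and 1042 in the control lists and 1099, 0 and 0 in the knockout lists, on average 1073 ± 325 and 366 ± 635 (mean ± SD over 3 lists; two-sided exact permutation p = 0.3). With each list shortened to its strongest peaks the direction turned, to 62 more bases in knockouts without the lowest 25% of peaks and 366 more with lists of equal length. Only control 1 and knockout 1 kept a peak without the lowest 25%, and only knockout 1 with lists of equal length. Scaf4 follows Sod1 and Tiam1 precedes it in the GRCm38.p6 table.

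The window of Atp7a, the copper-exporting ATPase, had short H3K27ac peaks and no H3K27me3. The promoter of Atp7a is shown for its 2 motif matches, in capitals and both on the minus strand (RefSeq, GRCm38.p6, chrX:106026974-106027273, plus strand).
Atp7a: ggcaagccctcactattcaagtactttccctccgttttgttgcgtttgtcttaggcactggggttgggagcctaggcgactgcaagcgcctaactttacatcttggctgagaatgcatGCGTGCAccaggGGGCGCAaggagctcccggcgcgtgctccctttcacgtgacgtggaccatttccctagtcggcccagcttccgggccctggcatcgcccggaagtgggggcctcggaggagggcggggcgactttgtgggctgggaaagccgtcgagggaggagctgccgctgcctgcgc
The region at chrX:105087574-105088227 had 453, 427 and 0 bases under H3K27ac peaks in the control lists and 408, 444 and 0 in the knockout lists. Replicates 1 and 2 of both genotypes had a peak of about the same width, and replicate 3 of both had none. By limma the log2 change was -0.07 (SE 0.986, adjusted p = 0.982). Its summit stood at 9.72 and 8.62 times the genome-wide mean in controls 1 and 2 and at 10.6 and 11.5 times in knockouts 1 and 2, over a local background of 1.34, 2.17, 3.34 and 2.43 times. These were lower levels than at any Sod1 or Mtf1 region with a peak in at least 3 lists.

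Another 3 regions of the Atp7a window were listed in a single knockout each: chrX:105070882-105071128 and chrX:105179318-105179904 in knockout 1 and chrX:105178794-105179140 in knockout 2. Over the window, 453, 427 and 0 bases were covered in the control lists and 1242, 791 and 0 in the knockout lists, on average 293 ± 254 and 678 ± 629 (mean ± SD over 3 lists; two-sided exact permutation p = 0.5). The knockouts with extra peaks were thus above the controls and knockout 3 was not. Cox7b, a subunit of cytochrome c oxidase, and Magt1 precede Atp7a in the GRCm38.p6 table, and Tlr13 and Pgk1 follow.

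Of the 11 H3K27ac regions in the windows, 4 had a peak in at least 3 lists and were tested. Limma called 0 of them, while 2.39% of all H3K27ac regions tested were called (1.9% lower and 0.486% higher in knockouts). At an unadjusted p under 0.05 there were 0 of the 4, against 2496 lower and 1335 higher of 22443 regions over the genome. By 10 kb bins limma tested 4 in the windows and called 0, against 2.83% of all bins (2.25% lower and 0.58% higher). At an unadjusted p under 0.05 there were 0 of the 4 bins, against 2094 lower and 1155 higher of 19295 over the genome. Without knockout 1, limma called 1 of the 4 regions, at Sod1, and 1 bin lower. That fit called 1032 of 22443 regions and 974 of 19295 bins lower over the genome. The median log2 change of the 4 regions was -0.36, against -0.06 over all 22443 regions. The other 7 regions were each in 1 or 2 lists.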

How the data were processed

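CUT&Tag for H3K27ac, H3K27me3 and IgG was made on 14 samples, of which 10 had a peak list; the 4 IgG samples were not analysed here. Per the submitters' processing notes, the tools were Bowtie2 2.2.4 and MACS2, on mm39; settings and the background library are not given in the sources used here. One list was called per library. The deposited lists give peak positions, the authors' score (10 times the −log10 p, cut to whole numbers), the fold over local background as a ratio, and p and q values as −log10.

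Peaks on 19 autosomes and X were used as deposited, with overlaps from 1 bp. Bases under peaks per window were compared with exact permutation tests. Bases per merged region and 10 kb bin were taken as log2(bases + 100), centred on features covered in every library and tested with limma 3.58.1 (R 4.3.3; trended, robust), without a replicate block, at a Benjamini-Hochberg adjusted p under 0.05, for features covered in at least 3 H3K27ac or 2 H3K27me3 lists. A bin belonged to the window holding its middle. Only the limma fit was run on simulated data, with normal values drawn at the fitted means and variances. Lists without covered bases, the pseudocount, the filter and the centring were not simulated, so the simulation does not check them. Depth was read back from fold and −log10 p for the 6 H3K27ac lists and knockout 1 of H3K27me3. Alternatives were list length, weak peaks, window bounds, pseudocount, filter, normalization, bin size, overlap, merging, a replicate block and leaving out each library.

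Members and lists were chosen with earlier results of these data known. Every region of a window was accounted for; where a window held more than 8, the 5 with the highest mean −log10 p, and any called, were described singly. The planned list of other copper genes was not placed, since no mm39 annotation was used here.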

Additional observations from a re-analysis of the deposited data

How the results depend on the processing

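Where a value moved with the setting, its cause was not tested. The differences in bases covered by H3K27ac at Mtf1 and Atp7a kept their direction under all 11 alternatives each, and ranged from -1413 to -602 and from 102 to 723 bases without 1 library. At Sod1 the difference ranged from -1073 to -523.5 without 1 library, and was 62 without the lowest 25% of peaks and 366 with lists of equal length. For H3K27me3 at Mt1 and Mt2 the difference was between -1380.5 and 13086.5 bases without 1 library, 3618 without the lowest 25% of peaks, 997.5 with lists of equal length, and -72.9 per Mb under peaks, a scale chosen after seeing the data. At Mtf1 it was between -61 and 707 bases without 1 library and -26.5 with lists of equal length.

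Member bins and regions called by limma numbered 0 under each alternative other than leaving out a library. Without 1 library, H3K27ac bins and regions called lower ranged from 0 to 1, H3K27me3 bins called higher from 0 to 2, and H3K27me3 regions from 0 to 1 lower and 0 to 2 higher. Over the genome, features called ranged, against the main count, from 0 to 1219 against 547 for H3K27ac bins, 1 to 1259 against 536 for H3K27ac regions, 0 to 6179 against 63 for H3K27me3 bins and 0 to 4276 against 70 for H3K27me3 regions; the highest came without knockout 1 (H3K27ac) and without control 2 (H3K27me3). Summit heights called numbered 97, against 0 without control 3 and 793 lower and 48 higher without knockout 1. Regions in controls only ranged from 0 to 1 for H3K27ac and 0 to 3 for H3K27me3 without 1 library, a rule that is then eased; for H3K27me3 there was 1 with lists of equal length and 1 without the lowest 25% of peaks. H3K27me3 regions in knockouts only ranged from 0 to 6 without 1 library, with 1 without the lowest 25% of peaks and 2 when at least 50% of a region had to be covered.

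The log2 change at the Atp7a region was 0.43 with quantile normalization and ranged from -0.88 to 0.66 without 1 library. Without 1 library, summit height at the left and right Mtf1 regions ranged from -0.77 to 0.0509 and from -0.67 to 0.0430, and the Mt1 and Mt2 bins from 94880001, 94890001, 94900001 and 94910001 from 0.28 to 3.61, from -1.05 to 2.65, from -3.90 to 0.47 and from -4.84 to -0.39.

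Labels number replicates alike in both genotypes. Deviations of same-numbered H3K27ac libraries correlated at 0.246, 0.0530 and 0.0102 over bins, not all above 0.1, so libraries were not paired. With the replicate block, differences in bases stayed -1027 at Mtf1, -707 at Sod1 and 384 at Atp7a. For H3K27me3 they stayed 5853 at Mt1 and Mt2 and 323 at Mtf1. Exact paired p was 0.25 or 0.5, in each window the lowest its pairs allow. Limma called 0 member bins and regions. Over the genome its calls, lower and higher, were 7 and 0 against 427 and 109 for H3K27ac regions. H3K27ac bins gave 29 and 3 against 435 and 112. H3K27me3 regions gave 1 and 0 against 6 and 64, and H3K27me3 bins 9 and 62 against 9 and 54. For summit height the block raised calls, to 551 and 74 against 91 and 6. The depth of the H3K27me3 lists other than knockout 1 was not read back.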
